A study of Mus musculus with 14 samples.

Results

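The subject of this report is a set of 5905 windows of the mouse genome, each 500 bases long, in which chromatin was more open in epidermal stem cells (EpdSC) than in hair follicle stem cells (HFSC) of young skin. Openness was measured by ATAC-seq, in which a transposase cuts and tags accessible DNA. A window was a member if it held 4 or more CPM (its share of the library's counts, scaled to a common total) in the young EpdSC library and if that value, plus 0.1, was 4 or more times the young HFSC value plus 0.1. The windows started at every multiple of 500 bases on chromosomes 1 to 19 and X, 5267565 in all. Of the 37469 windows with 4 CPM in young EpdSC, members were 15.8%. Members were thus chosen by the young ATAC values, which are given below as a description only.

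The study took back skin of female mice, aged 2 months (young) or 24 months (aged), digested it with trypsin and sorted the cells. The labels name the strain C57B6 in one field and C57B8 in another. HFSC were sorted as lineage-negative, integrin alpha 6-high, CD34+Sca1- cells, and EpdSC as lineage-negative, integrin alpha 6-high, CD34-Sca1+ cells. There was 1 ATAC library for each of the 4 combinations of cell type and age, and 2 RNA-seq libraries for each. No treatment or genetic change is named for any group, and the labels do not say whether libraries came from separate or pooled animals, so the p-values below measure the spread between these libraries, which may be technical.

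The interfollicular epidermis is a stratified sheet that renews itself from a basal layer attached to the basement membrane through integrins. Basal cells leave that layer, switch keratins and build the cornified barrier. Follicle stem cells sit in the bulge, below the opening of the hair canal, and feed the hair cycle. Regions that are open in 1 of these cell types and closed in the other commonly include enhancers, short stretches that bind transcription factors and can act on genes at a distance. The AP-1 dimers of Fos, Jun and Atf proteins, p63, KLF and C/EBP proteins are among the factors known to bind regulatory DNA of epidermal cells.

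The sort was visible in the RNA. Cd34, the follicle stem cell marker used for the sort, had 1805 and 1714 CPM in the young HFSC libraries and 0.588 and 1.81 CPM in the young EpdSC libraries. Ly6a, which encodes Sca1, had 0.399 and 0.629 CPM in young HFSC and 218 and 132 CPM in young EpdSC. Both genes separated the cell types in every library of both ages. No member window lay within 50000 bases of Cd34, which had 5 windows of the opposite kind (4-fold more open in HFSC), whereas 3 members lay within 50000 bases of Ly6a.

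The ATAC libraries held 37322834 counts (young EpdSC), 26169738 (young HFSC), 22933001 (aged EpdSC) and 8243611 (aged HFSC) in these windows, so that 4 CPM stood for 149, 105, 91.7 and 33.0 counts. The aged HFSC library stood apart. In 11148 windows that were equally open in the young libraries (4 CPM or more in both, with a ratio near 1), it held 4.67% of its counts, against 8.83%, 9.01% and 9.504% in young EpdSC, young HFSC and aged EpdSC. For this reason, the main counts and median ratios of EpdSC to HFSC at 24 months are given in CPM and again after TMM scaling. TMM (trimmed mean of M values) matches libraries on open windows. Its factors were 1.18 (young EpdSC), 1.15 (young HFSC), 1.23 (aged EpdSC) and 0.601 (aged HFSC). Unless TMM is named, ATAC values are in CPM only and keep this limit, as do those of single windows, promoters, regions and genes.

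Members covered 150 or more of the 300 bases of 146 RefSeq promoters (250 bases before to 50 after a transcript start, assembly GRCm38.p6), which belonged to 135 genes. The promoters of 6 genes are shown. A member covers them, and the genes were either among the 10 with the most members in the genome (Plbd1) or among the up to 4 with the most members in their gene list, which for Skint1 and Skint11 was 1 member each. Wnt3 and Wnt16 encode secreted WNT ligands, Plbd1 a phospholipase B-like protein, Tgm3 a transglutaminase of the cornified envelope, and Skint1 and Skint11 belong to a family of epithelial immunoglobulin-domain proteins. Capitals mark matches to 4 patterns, read on both strands: TGANTCA (AP-1), a loose form of the p63 site (2 CNTG stretches with 6 bases between them), TTGCNNAA (C/EBP) and GGGNGGGG (KLF). The promoters lie at chr11:103773925-103774224 (Wnt3, plus strand), chr6:22287977-22288276 (Wnt16, plus), chr6:136661844-136662143 (Plbd1, minus), chr2:130012090-130012389 (Tgm3, plus), chr4:112006019-112006318 (Skint1, plus) and chr4:114163134-114163433 (Skint11, plus).
Wnt3: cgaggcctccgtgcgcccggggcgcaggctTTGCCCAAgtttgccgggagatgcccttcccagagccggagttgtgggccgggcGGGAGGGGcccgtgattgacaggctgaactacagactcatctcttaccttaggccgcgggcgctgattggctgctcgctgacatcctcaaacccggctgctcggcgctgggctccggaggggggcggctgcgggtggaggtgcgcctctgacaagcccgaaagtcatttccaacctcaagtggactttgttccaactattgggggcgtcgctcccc
Wnt16: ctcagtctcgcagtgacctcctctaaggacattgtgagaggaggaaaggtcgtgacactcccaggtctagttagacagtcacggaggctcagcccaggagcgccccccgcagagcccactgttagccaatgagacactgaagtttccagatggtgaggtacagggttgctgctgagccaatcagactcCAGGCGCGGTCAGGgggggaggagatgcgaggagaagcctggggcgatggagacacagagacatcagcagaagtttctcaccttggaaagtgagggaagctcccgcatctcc
Plbd1: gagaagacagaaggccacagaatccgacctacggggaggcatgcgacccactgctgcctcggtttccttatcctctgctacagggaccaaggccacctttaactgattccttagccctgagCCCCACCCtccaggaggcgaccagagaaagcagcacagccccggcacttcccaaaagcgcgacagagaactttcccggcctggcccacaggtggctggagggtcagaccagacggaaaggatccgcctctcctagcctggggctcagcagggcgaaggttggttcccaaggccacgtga
Tgm3: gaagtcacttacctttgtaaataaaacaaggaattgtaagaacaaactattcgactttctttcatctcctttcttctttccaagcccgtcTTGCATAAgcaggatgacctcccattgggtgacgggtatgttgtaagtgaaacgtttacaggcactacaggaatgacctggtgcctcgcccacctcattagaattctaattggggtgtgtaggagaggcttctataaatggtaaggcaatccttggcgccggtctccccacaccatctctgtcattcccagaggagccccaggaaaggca
Skint1: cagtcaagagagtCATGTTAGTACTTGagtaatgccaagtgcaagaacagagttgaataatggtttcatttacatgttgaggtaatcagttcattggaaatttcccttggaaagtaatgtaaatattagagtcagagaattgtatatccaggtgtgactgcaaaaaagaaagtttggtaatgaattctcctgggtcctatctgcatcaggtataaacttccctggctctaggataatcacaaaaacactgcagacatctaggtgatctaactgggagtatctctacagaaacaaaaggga
Skint11: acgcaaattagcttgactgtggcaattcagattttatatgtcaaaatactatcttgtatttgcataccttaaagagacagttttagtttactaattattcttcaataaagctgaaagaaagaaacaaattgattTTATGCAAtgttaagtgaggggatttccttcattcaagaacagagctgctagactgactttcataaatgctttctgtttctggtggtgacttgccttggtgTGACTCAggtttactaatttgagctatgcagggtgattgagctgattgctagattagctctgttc

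The Wnt3 promoter carried a C/EBP and a KLF match, Wnt16 and Skint1 a match to the loose p63 pattern, Plbd1 a KLF match, Tgm3 a C/EBP match, and Skint11 an AP-1 and a C/EBP match. The member over the Wnt16 promoter had 8.01 CPM in young EpdSC, 0.688 in young HFSC, 6.85 in aged EpdSC and 0.485 in aged HFSC. Over the Wnt3 promoter the values were 5.04, 0.382, 5.28 and 0.607 CPM, and over that of Skint11 5.68, 0.267, 5.19 and 0.121 CPM, in the same order. The 2 EpdSC libraries were thus close to each other and far above both HFSC libraries at each of these 3 promoters.

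AP-1 letters were more frequent in promoters covered by members than in other groups of promoters. The pattern TGANTCA stood in 21.9% of the 146 promoters covered by members, in 9.43% of the promoters covered by windows 4-fold more open in HFSC, in 3.95% of those covered by equally open windows and in 7.85% of all RefSeq promoters. In all, 15 patterns were searched. The loose p63 pattern stood in 26.0% of promoters covered by members and 16.1% of all promoters, but the strict form (2 CATG stretches with 6 bases between them) in 0.685% (1 of 146) and 0.714%. Of the other patterns, the C/EBP pattern stood in 17.1% and 10.9%, and the GATA pattern AGATAA in 15.8% and 11.2%. The LHX pattern TAATTA stood in 8.22% and 5.25%, and the TCF pattern CTTTGAT in 4.79% and 3.76%. The GRHL pattern AACCNGTT stood in 2.05% and 2.10%. The KLF pattern was less frequent in promoters covered by members than in all promoters, with 29.5% against 33.5%. So were the RUNX pattern TGTGGT (11.6% against 16.6%) and the ETS pattern CCGGAAG (4.11% against 8.92%). Equally open promoters held ETS letters in 24.0% and KLF letters in 47.7%, and they were also richer in G and C (median 62.3% of bases, against 52.3% in promoters covered by members). These shares describe letters in a 300-base stretch. They were not tested, and a match is not a bound site.

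The AP-1 stretches of 5 promoters are shown, with 20 bases on each side of the match in capitals, to make the pattern visible. They were chosen after their values were seen, among matches in promoters covered by members. Mmp3 encodes a stromelysin, Chit1 a chitinase, Clca3a2 a member of the calcium-activated chloride channel regulator family, Slitrk6 a transmembrane protein and Sphk1 a sphingosine kinase. Their promoters are chr9:7445572-7445871 (Mmp3, plus strand), chr1:134110992-134111291 (Chit1, plus), chr3:144819445-144819744 (Clca3a2, minus), chr14:110755100-110755399 (Slitrk6, minus) and chr11:116531587-116531886 (Sphk1, plus).
Mmp3: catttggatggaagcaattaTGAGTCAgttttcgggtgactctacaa
Chit1: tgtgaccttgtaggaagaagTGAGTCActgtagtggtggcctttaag
Clca3a2: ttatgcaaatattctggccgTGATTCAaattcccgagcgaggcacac
Slitrk6: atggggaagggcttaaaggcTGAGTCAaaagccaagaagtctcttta
Sphk1: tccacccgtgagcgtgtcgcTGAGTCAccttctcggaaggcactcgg

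The match began 46 bases before the transcript start in Mmp3, 52 in Chit1, 50 in Clca3a2, 18 in Slitrk6 and 50 in Sphk1. All 5 genes had more RNA in young EpdSC than in young HFSC, by 6.88, 6.32, 6.08, 4.19 and 2.89 on the log2 scale, each with an edgeR adjusted p under 0.05. They were picked with these values known, so their shared direction is a description only. Other genes with a match that were higher in EpdSC were Skint11, Cyp3a13, Clec2g, Ikbke, Sdcbp2, Pak6 and Mark2. A higher level was not particular to genes with a match. Over all promoters covered by members, 67 of 91 genes tested (73.6%) were higher at 2 months and 1 was lower. An AP-1 match did not always come with a change in RNA. Genes with a match that did not pass the RNA test at 2 months were Cldn4, Entpd3, Olr1, Gm28497, Morrbid, 1110002J07Rik, Cgref1 and Cd80. Of these, Cgref1 had less RNA in EpdSC (log2 difference -1.99, edgeR adjusted p = 0.096). The Cd80 promoter carried a match and a member with 4.98 CPM in young EpdSC and 0.229 CPM in young HFSC, yet Cd80 RNA was at or below 0.736 CPM in all 8 libraries (log2 difference 0.48, edgeR adjusted p = 0.904).

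The signal in the members was low in both HFSC libraries and of 1 size in both EpdSC libraries. The median member held 5.65 CPM in young EpdSC, 0.688 in young HFSC, 5.80 in aged EpdSC and 0.728 in aged HFSC, where the mean over all windows of the genome is 0.190 CPM. The members took 3.78%, 0.478%, 3.86% and 0.454% of the 4 libraries' counts. The median young ratio was 7.35, 2587 members had a ratio of 8 or more, 460 of 16 or more, and the largest was 47.8. Around the window the mean signal of both EpdSC libraries came to 6.39 and 6.54 CPM, and that of both HFSC libraries had a small crest of 0.810 and 0.769 CPM. Only 2 members had no count at all in young HFSC, and 98 had none in aged HFSC, the shallower library, where 3 counts (0.364 CPM) is the limit that a count of 0 allows. Such limits, and the intervals given below for single windows, cover counting error only.

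**Figure D1:**
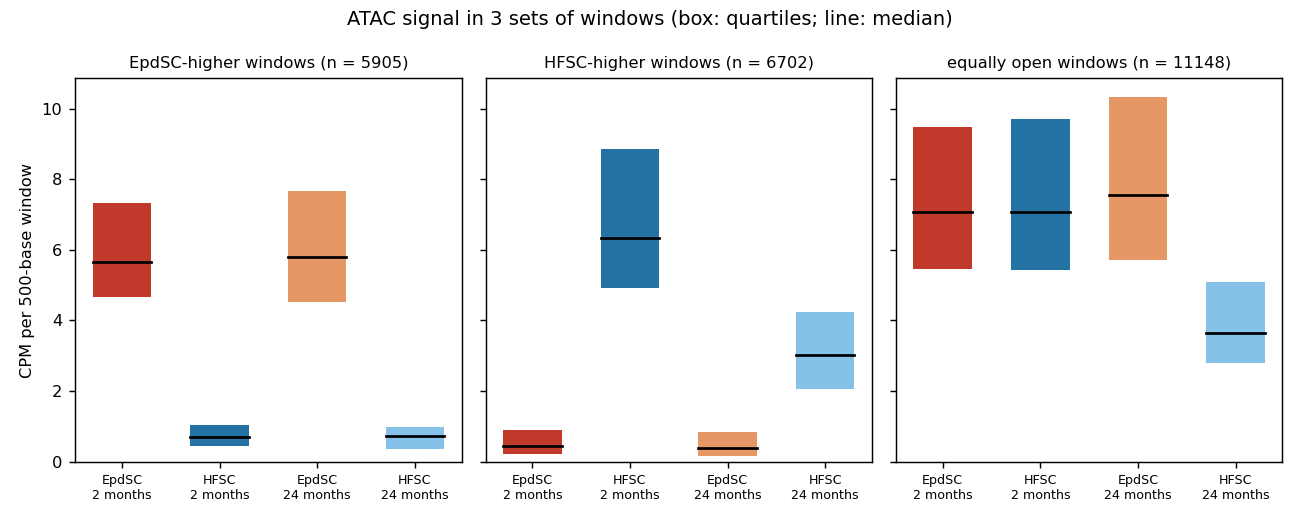
ATAC signal in CPM per 500-base window (vertical axis) in the 4 libraries for EpdSC-higher windows (5905), HFSC-higher windows (6702) and equally open windows (11148). Boxes span the quartiles and lines mark the medians; the EpdSC-higher windows have medians of 5.65 and 5.80 CPM in EpdSC and 0.688 and 0.728 CPM in HFSC, and the aged HFSC library is lower than the other 3 in equally open windows.

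**Figure D2:**
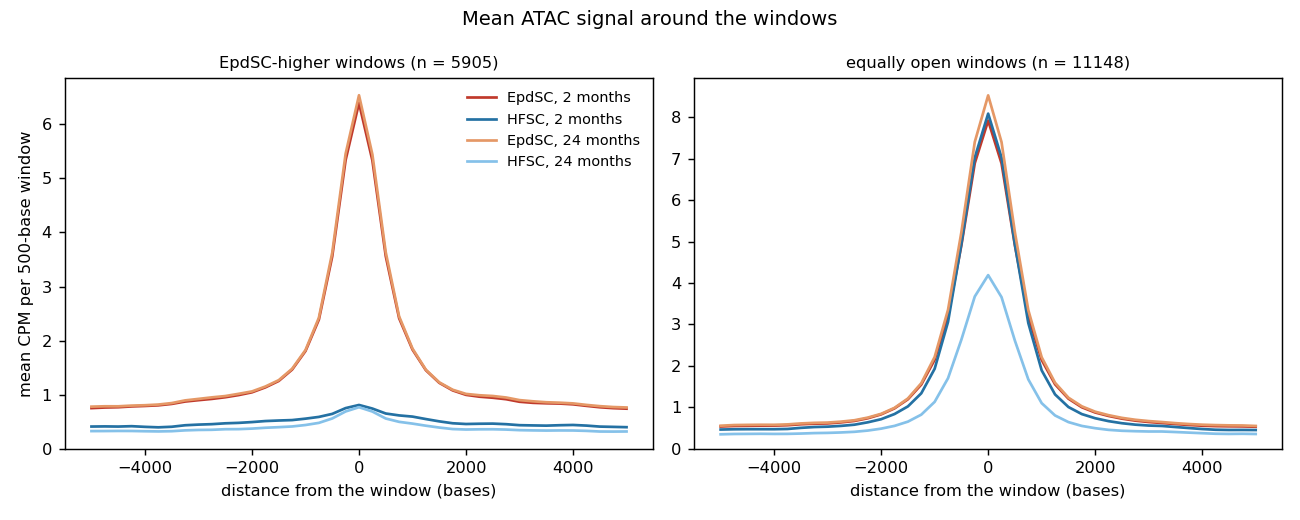
Mean ATAC signal in CPM (vertical axis) by distance in bases from the window (horizontal axis), with 1 line for each library. At the EpdSC-higher windows the EpdSC lines come to 6.39 and 6.54 CPM and the HFSC lines to 0.810 and 0.769 CPM; at equally open windows, aged HFSC alone is low, at 4.19 CPM.

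The rule's ratio has no natural break. The 5 members just inside it had young ratios of 4.0004 to 4.0016, and the 5 windows just outside had 3.9969 to 3.9991. At 24 months those just inside had ratios of 5.69 to 8.83, and those just outside 3.07 to 21.6.

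The 24-month libraries were not used to choose the members. In CPM, 5455 of 5905 members (92.4%, exact 95% binomial interval 91.7% to 93.0%) were at least 4-fold higher in aged EpdSC than in aged HFSC, where the share over all windows with 4 CPM in young EpdSC was 26.0%. At least 2-fold higher were 5897 members (background 67.5%). All 5905 had more signal in aged EpdSC, but so did 36645 of the 37469 windows with 4 CPM in young EpdSC. Of the 11148 equally open windows, 11071 did as well. The median log2 ratio at 24 months was 2.98. After TMM scaling, 3052 members (51.7%, background 9.48%) were at least 4-fold higher, 5491 (93.0%, background 26.4%) were at least 2-fold higher, 8 were lower, and the median log2 ratio was 2.03. Equally open windows had a median log2 ratio of 1.02 in CPM and 0.01 after TMM scaling. With 1 library in each group there is no test of these differences. The binomial interval counts windows as if they were independent, which neighbouring windows are not. It covers neither the spread between libraries nor the choice of scaling.

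When the rule itself was applied to the 24-month libraries, it found 10668 windows in CPM. Of these, 4827 were members, which is 81.7% of the young list and 45.2% of the aged list. After TMM scaling of all libraries the lists held 4170 young and 2916 aged windows, and the 2011 shared windows were 48.2% of the former and 69.0% of the latter. In CPM, the smallest ratios of members at 24 months were in Gse1 (1.36, interval 0.838 to 2.33) and near Gm39162 (1.42). Next came a window in Slco3a1 (1.68) and windows near Gm33098 (1.70) and Mturn (1.75). After TMM scaling, the smallest log2 ratio of any member was -0.56. The largest ratios, also in CPM, came from windows with no count in aged HFSC. Those windows lay in Gm31432, where aged EpdSC was at least 25.8-fold higher than the limit of 3 counts in that library, near Card10 (at least 21.7-fold), in Fem1a (at least 20.1-fold), and near n-R5s92 and Elmod1.

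Members lay away from transcript starts. The median distance to the nearest RefSeq start was 18948 bases (quartiles 6021 and 49490), 511 members (8.65%) were within 1000 bases of a start, and 1463 (24.8%) were more than 50000 bases away. Equally open windows had a median of 227 bases, and 59.8% of them were within 1000 bases of a start. Windows 4-fold more open in HFSC were farther out than members, at a median of 34016.5 bases and with 4.16% near a start. Among windows taken at every 50th step of the genome, 2.53% were within 1000 bases of a start and the median distance was 50755.5 bases.

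**Figure D3:**
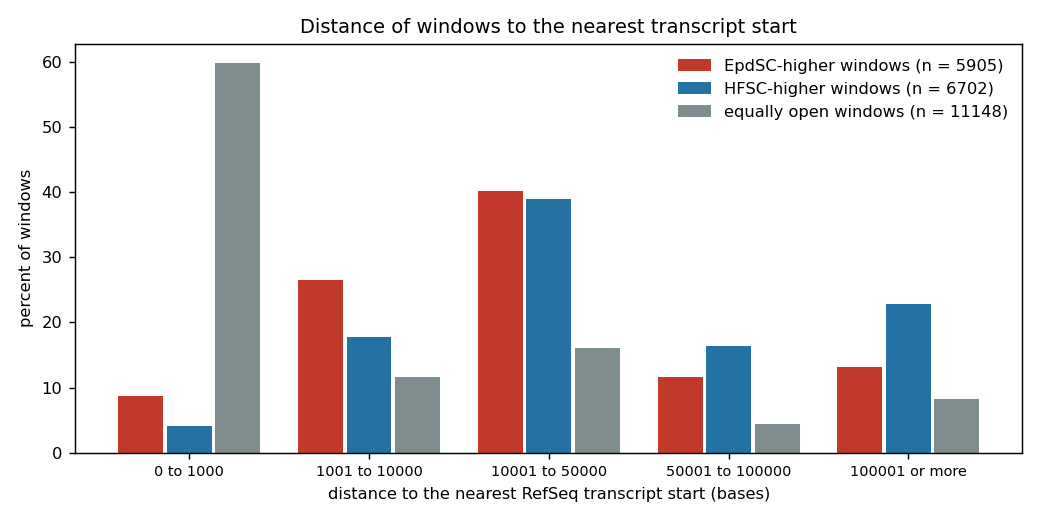
Percent of windows (vertical axis) in 5 ranges of distance to the nearest RefSeq transcript start in bases (horizontal axis), for EpdSC-higher, HFSC-higher and equally open windows. Of the EpdSC-higher windows, 8.65% lie within 1000 bases of a start and 40.1% beyond 10000 and up to 50000 bases, whereas 59.8% of equally open windows lie within 1000 bases.

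Most members lay in genes. Inside a RefSeq gene were 3587 members (60.7%), within 1000 bases of a gene end 888 (15.0%), and in either place 3839 (65.0%, exact 95% binomial interval 63.8% to 66.2%). The shares for either place were 57.5% of HFSC-higher windows, 89.5% of equally open windows, 81.9% of all windows with 4 CPM in young EpdSC and 50.2% of windows at every 50th step. Chromosome X held 18 members (0.305%), against 1.76% of equally open windows and 6.49% of sampled windows. Exons and introns were not told apart here, and these shares have no test. The interval again counts neighbouring windows as if they were independent.

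Joined where they touched or had 1 window between them, the members formed 4250 regions, of which 2990 (70.4%) were a single window. The region with the most windows by far covered the 3' part of Atf3, a stress-induced transcription factor of the AP-1 group, and ran past the gene's end. It ran over 21 member windows at chr1:191166001-191176500, with summed signals of 172 CPM in young EpdSC, 12.8 in young HFSC, 268 in aged EpdSC and 18.1 in aged HFSC. The second region, with 8 windows at chr15:101272001-101276500, covered the 3' part of Nr4a1, a stress-inducible nuclear receptor, with 43.3, 3.29, 68.1 and 4.97 CPM. A region of 6 windows at chr12:85476001-85479000 covered the 3' part of Fos, an AP-1 subunit, and ran past its end, with 49.4, 5.58, 80.5 and 9.34 CPM. In each of these regions aged EpdSC was the highest library and both HFSC libraries were far below.

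The other regions with the most windows differed less between the ages in EpdSC. Those with 6 windows were chr9:106357501-106361500, which is 6979 bases from Poc1a, chr6:136659501-136662500 at the start of Plbd1, and chr9:54645001-54648000 at Gm51677. There were 15 regions of 5 windows. The 4 with the highest summed signal in young EpdSC lay at Gm9298 (chr14:99631001-99633500), in 1700025G04Rik (chr1:152059501-152062500), near Gm35359 (chr6:108704001-108706500) and in Ptgfrn (chr3:101047501-101050000), which encodes a membrane protein that binds tetraspanins. Plbd1 had 49.4 CPM in young and 50.4 CPM in aged EpdSC, and Ptgfrn had 43.1 and 42.2 CPM. Poc1a, a centriole gene, had 2.50 to 5.28 CPM of RNA in every library and did not pass the RNA test at 2 months (log2 difference -0.20, SE 0.355, edgeR adjusted p = 0.753).

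At Atf3, Fos and Nr4a1 the difference between the cell types lay beyond the start. Within 500 bases of the Atf3 start, both young libraries were open, with a mean of 11.1 CPM per window in EpdSC and 12.1 in HFSC. From 1000 bases after the start to the gene end, the 24 windows held a mean of 5.22 CPM in young EpdSC, 0.516 in young HFSC, 8.91 in aged EpdSC and 0.728 in aged HFSC. The next 5000 bases beyond the gene end held 8.15, 0.726, 12.8 and 0.922 CPM. Fos had 10.4 and 8.27 CPM at its start in young EpdSC and HFSC, and 6.29 and 0.909 CPM from 1000 bases to the gene end. Nr4a1 had 8.36 and 6.04 CPM at its start, and 3.49 and 0.377 CPM over its body. At 24 months the starts held 10.9 CPM in EpdSC and 7.16 in HFSC (Atf3), 14.5 and 4.61 (Fos), and 10.4 and 2.85 (Nr4a1). These values keep the limit of the aged HFSC library. At Wnt16 and Plbd1, by contrast, the signal stood in peaks that included the start, where young EpdSC and HFSC had 5.21 and 0.420 CPM (Wnt16) and 10.1 and 1.45 CPM (Plbd1).

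**Figure D4:**
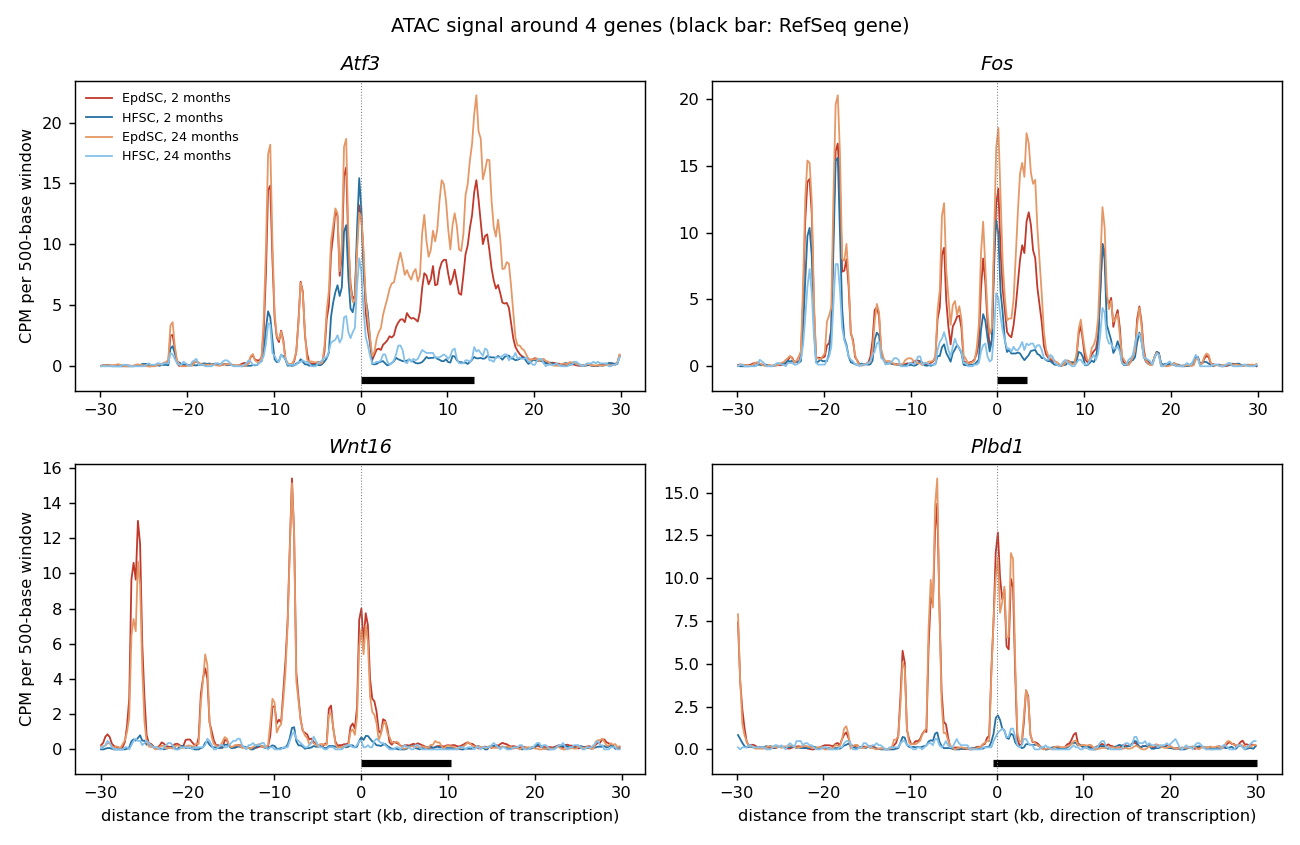
ATAC signal in CPM per 500-base window (vertical axes) by distance in kb from the transcript start in the direction of transcription (horizontal axes) at Atf3, Fos, Wnt16 and Plbd1, with 1 line for each library and a black bar for the gene. Both cell types are open at the starts of Atf3 and Fos, and the EpdSC libraries alone are high over the bodies and past the ends of these genes, whereas Wnt16 and Plbd1 have separate EpdSC peaks at and before the start.

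Genes of this rapid-response kind were then looked at together. A list of 28 immediate early genes, which many stimuli switch on within minutes, was drawn up after these values were seen. Of the 28 genes, 19 (67.9%) had a member within 50000 bases, against 23.9% of protein-coding RefSeq genes, and 9 had an HFSC-higher window (16.1% of protein-coding genes). On or within 1000 bases of the gene, 12 of the 28 had a member, against 7.62% of protein-coding genes. In RNA, 19 of the 28 were higher in EpdSC and 3 lower at 2 months, and 21 were higher and 1 lower at 24 months (edgeR adjusted p under 0.05), with median log2 differences of 1.80 and 1.91. Among all genes tested, 13.0% were higher and 13.1% lower in EpdSC at 2 months, and 12.2% and 11.9% at 24 months. Atf3 RNA was 112 and 29.2 CPM in young HFSC, 532 and 435 in young EpdSC, 103 and 86.1 in aged HFSC, and 737 and 743 in aged EpdSC. Its log2 difference between the cell types was 2.77 at 2 months (SE 0.447, edgeR adjusted p = 0.000661) and 2.96 at 24 months (SE 0.450, edgeR adjusted p = 0.000464). Young HFSC replicate 2 was well below replicate 1 for Atf3, and also for Fos (234 and 93.9 CPM) and Nr4a1 (64.9 and 13.6 CPM). Without that library, an alternative chosen after seeing the data, 17 of the 28 genes were higher and 3 lower at 2 months, and the log2 difference of Atf3 was 2.10. Without young HFSC replicate 1 instead, 21 were higher and 2 lower, and that of Atf3 was 4.08. Fos had 2511 and 2066 CPM in young EpdSC (log2 difference 3.80, SE 0.352, edgeR adjusted p = 8.82e-06). Nr4a1 had 147 and 63.6 CPM in young EpdSC and did not pass the test at 2 months (1.42, SE 0.551, edgeR adjusted p = 0.0829), but did at 24 months (2.26, SE 0.564, edgeR adjusted p = 0.0119).

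The immediate early genes were also compared between the ages in EpdSC. On these genes, 49 members had a median log2 ratio of aged to young EpdSC of 0.59 (1.51-fold), and 48 of them were above 0. The 49 lay on only 12 genes, with 16 on Atf3, 7 on Nr4a1 and 5 on Fos. The values of these 3 genes were known when the list was drawn up. Windows of the same gene, from 1 library per age, are not replicates of an age difference. The other 5856 members had a median of 0.00, with 2963 (50.6%) above 0. The young EpdSC value took part in the rule, so these ratios are a description. In RNA, which the rule did not use, 26 of the 28 genes had a higher level in aged than in young EpdSC (10730 of all 21464 genes tested did), with a median log2 difference of 0.56, but only Arc passed the test across all genes (3.61, SE 0.367, edgeR adjusted p = 0.00540), and 13 had an unadjusted p under 0.05, where 957 of all 21464 genes (4.46%) did. Arc, a gene best known from neurons, had 5.64 and 3.06 CPM in young and 50.3 and 56.4 CPM in aged EpdSC. Atf3 had a log2 difference of 0.61 (SE 0.419, edgeR adjusted p = 1) and Fos of 0.64 (SE 0.315, edgeR adjusted p = 1) between the ages.

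Over all members the median log2 ratio of aged to young EpdSC was 0.01. At least 2-fold higher at 24 months in CPM were 7 members, and at least 2-fold lower were 15. Over all 37469 windows with 4 CPM in young EpdSC, these counts were 16 and 44. After TMM scaling they were 4 and 20 for members, and 13 and 57 for all those windows. The largest ratio was at Fosb, another AP-1 subunit gene, where neighbouring windows went from 9.06 to 23.2 CPM (2.56-fold, interval 2.23 to 2.94) and from 8.71 to 19.7 CPM (2.26-fold, interval 1.96 to 2.62). The other members in the first group lay near Tshz3 and in Tmem71, Gm31615, Abhd2 and Grk3. Among the lower ones were 1 window in Lgr6, a stem cell receptor gene of the skin, from 4.13 to 2.01 CPM (0.486-fold, interval 0.342 to 0.680), and neighbouring windows in Add2, from 5.39 to 2.53 and from 4.21 to 1.79 CPM. The rule set a lowest value for young EpdSC and none for aged EpdSC, so lower and higher values are not on the same footing. In RNA, 1 of the 2002 tested genes nearest to members was higher and 1 lower in aged than in young EpdSC (edgeR adjusted p under 0.05, with 133, or 6.64%, at an unadjusted p under 0.05, against 4.46% of all genes), and across all genes 0.0839% were called.

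In HFSC the members' median log2 ratio of aged to young signal was -0.06 in CPM and 0.76 after TMM scaling. The rule chose windows for a low young HFSC value, which by itself raises this ratio, so it is a description and was not compared with that of other windows.

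The nearest gene within 100000 bases was found for 5861 members and gave 3062 genes. The nearest gene need not be the one a window acts on. Of these genes 2318 had a row in the RNA tables and 2002 passed the filter on low counts, so the shares that follow leave out genes with little RNA in both cell types. At 2 months 881 of the 2002 (44.0%) were higher in EpdSC and 191 (9.54%) lower, with a median log2 difference of 0.60, and the median over all genes tested was -0.06. At 24 months 815 (40.7%) were higher and 172 lower, with a median of 0.50, and 754 genes were higher at both ages. In bulk RNA, fewer cells of a type and less RNA per cell cannot be told apart. Genes nearest to HFSC-higher windows had the opposite pattern, with 10.5% higher and 45.1% lower in EpdSC at 2 months, and those nearest to equally open windows had 19.3% and 13.2%.

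The share of nearest genes called higher grew with the number of members. It was 38.0% for genes with 1 member, 43.8% with 2, 54.7% with 3 or 4, and 68.6% with 5 or more at 2 months, and 34.6%, 41.6%, 51.4% and 62.0% at 24 months. Genes to which both a member and an HFSC-higher window were nearest were split evenly, with 83 higher and 85 lower of 278. Where a member lay within 1000 bases of a start, 194 of 293 genes (66.2%) were higher and 7 lower, with a median log2 difference of 1.81. Where a member covered the promoter, 67 of 91 genes tested were higher and 1, Pfkm, which encodes a phosphofructokinase, was lower (median log2 difference 3.26). Over promoters covered by any window with 4 CPM in young EpdSC, 21.4% of genes tested were higher and 11.2% lower. Over all promoters the shares were 15.3% and 14.3%.

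**Figure D5:**
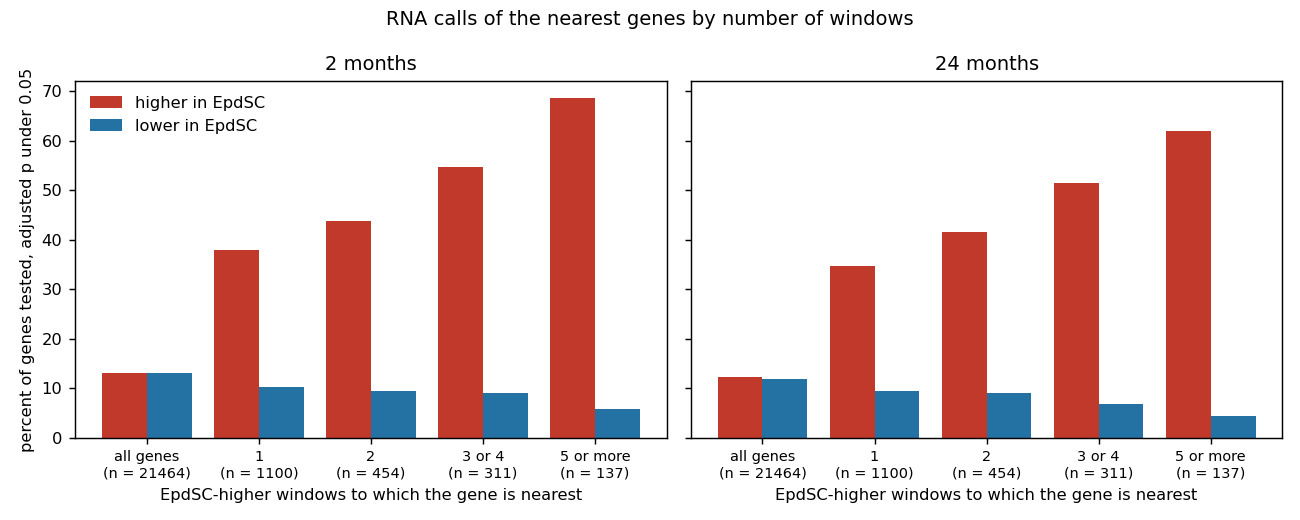
Percent of genes tested (vertical axis) that were higher (red) or lower (blue) in EpdSC than HFSC in RNA, by the number of EpdSC-higher windows to which the gene is nearest (horizontal axis), at 2 and 24 months. The share higher grows from 38.0% with 1 window to 68.6% with 5 or more at 2 months, where it is 13.0% over all genes.

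Among promoters that members covered, several belonged to signalling genes. Bmp4, a secreted ligand of the TGF-beta superfamily, had 6 members nearest to it, and the one over its promoter held 11.5 CPM in young EpdSC and 0.917 in young HFSC. Its RNA was 0.499 and 0.865 CPM in young HFSC and 61.3 and 65.8 CPM in young EpdSC (log2 difference 6.56, SE 0.277, edgeR adjusted p = 3.22e-08). Il33, an alarmin cytokine of barrier epithelia, had 3.03 and 3.30 CPM in young HFSC and 264 and 222 CPM in young EpdSC (6.26, SE 0.244, edgeR adjusted p = 1.92e-08). Irf4, a transcription factor best known from immune cells and melanocytes, had 0.665 and 0.589 CPM in young HFSC and 94.2 and 79.2 CPM in young EpdSC (7.10, SE 0.345, edgeR adjusted p = 6.42e-08). These 3 genes, with Foxn1 (log2 difference 4.67), a regulator of keratinocyte differentiation, and Klk11 (6.86), a secreted protease, were named after their values were seen. A covered promoter whose gene did not pass the RNA test was that of Cldn4, a tight junction claudin, with 2.96 and 1.61 CPM in young HFSC and 4.14 and 3.61 CPM in young EpdSC (0.76, SE 0.360, edgeR adjusted p = 0.158).

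The 187 genes with 5 or more members held 1224 members, and 137 of them were tested in RNA. At 2 months 94 were higher in EpdSC and 8 lower, and 83 were higher at both ages. The genes with the most members were Atf3 (20), Ptgfrn and Rasa3 (15 each), Nsf and the long noncoding gene Gm45968 (14 each), Plbd1, Mipep, Gm34061 and 4930455D15Rik (13 each), and Fry (11). Gm25125, Ipmk and Neat1 also had 11 each, with less summed signal in young EpdSC. All 15 members of Rasa3, which encodes a Ras GTPase-activating protein, lay inside the gene, and its RNA was 7.88 and 11.1 CPM in young HFSC and 194 and 151 CPM in young EpdSC (log2 difference 4.18, SE 0.231, edgeR adjusted p = 1.53e-07). Plbd1 RNA was 4.26 and 5.34 CPM in young HFSC and 329 and 243 CPM in young EpdSC (5.90, SE 0.244, edgeR adjusted p = 2.82e-08). Ipmk, an inositol polyphosphate kinase gene, had 23.0 and 21.4 CPM in young HFSC and 461 and 352 CPM in young EpdSC (4.20, SE 0.174, edgeR adjusted p = 2.87e-08). Mipep, a mitochondrial peptidase gene, had 16.6 and 19.0 CPM in young HFSC and 24.96 and 25.9 CPM in young EpdSC, a difference of 0.52 that did not pass the test (edgeR adjusted p = 0.0882). Nsf, the ATPase that takes apart SNARE complexes, and Ptgfrn were higher by 1.27 and 3.08 on the log2 scale (edgeR adjusted p = 0.000138 and 2.83e-07). Nsf is a neighbour of Wnt3, and of the 10 members within 50000 bases of Wnt3 only 4 had Wnt3 as their nearest gene.

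The 8 genes with 5 or more members and less RNA in EpdSC at 2 months were Sik3, Prss23, Efna5, Slc9a8, Pvt1, Stxbp4, Ttll5 and Stn1. Efna5, an ephrin ligand, had 85.5 and 74.2 CPM in young HFSC and 27.5 and 22.0 CPM in young EpdSC (log2 difference -1.69, SE 0.185, edgeR adjusted p = 3.35e-05), and it was nearest to 6 HFSC-higher windows as well as 6 members. Slc9a8, a sodium-proton exchanger, fell by 1.28 with no HFSC-higher window (SE 0.243, edgeR adjusted p = 0.00207).

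The named pathways were read against a background in which 19.2% of all RefSeq genes, and 23.9% of protein-coding genes, had a member within 50000 bases, and 14.7% and 16.1% had an HFSC-higher window. Genes that lie close together share windows, so the genes of a family are not independent. In the WNT pathway list, 16 of 30 genes had a member and 16 of 30 had an HFSC-higher window. Of the 16 genes with a member, all tested in RNA, 13 were higher and 1 lower in EpdSC at 2 months, and the same numbers at 24 months. Over the whole list 14 were higher and 11 lower of 29 at 2 months. The median log2 difference was 2.64 over the genes with a member and 0.06 over the whole list, where it was -0.06 over all genes tested. Wnt16 had 12 members within 50000 bases, Wnt3 had 10, Fzd10, a WNT receptor, had 9, and Wnt6 had 5. Wnt16 members summed to 102 CPM in young EpdSC, 7.53 in young HFSC, 84.0 in aged EpdSC and 5.70 in aged HFSC. Wnt16 RNA was 0.332 and 0.275 CPM in young HFSC and 31.0 and 55.0 CPM in young EpdSC, and 0.770 and 0.460 against 34.3 and 18.9 CPM in the aged libraries (log2 difference 7.12 and 5.42, edgeR adjusted p = 6.04e-07 and 2.70e-06). Wnt3 RNA was 0.765 and 1.10 CPM in young HFSC and 167 and 121 CPM in young EpdSC (7.28, SE 0.368, edgeR adjusted p = 8.01e-08). Fzd10 RNA was 1.06 and 2.20 CPM in young HFSC and 210 and 156 CPM in young EpdSC (6.83, SE 0.316, edgeR adjusted p = 5.14e-08). Its antisense neighbour Fzd10os moved the same way (4.64), and without a stated strand setting the reads of the 2 genes cannot be told apart. For Wnt16, Wnt3 and Fzd10, both young EpdSC libraries were above both young HFSC libraries. How many of all genes tested are separated in this way was not counted, so this is a description only.

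Transcription factors of the epidermis and of the follicle had members nearby in different shares. Of 34 epidermal factors, 25 had a member within 50000 bases, and of 20 follicle stem cell factors 6 did, while 14 of the 34 and 17 of the 20 had an HFSC-higher window. In RNA at 2 months, 19 of the 34 were higher and 7 lower in EpdSC, and 2 of the 20 were higher and 16 lower (median log2 difference 0.65 and -2.32). Rora, a nuclear receptor, had 10 members, and Ehf, an ETS factor of epithelia, and Grhl3, a grainyhead factor of barrier formation, had 9 each. Grhl3 RNA was 1.70 and 3.58 CPM in young HFSC and 37.4 and 39.0 CPM in young EpdSC (log2 difference 3.87, SE 0.327, edgeR adjusted p = 4.19e-06). Ehf rose by 4.74, Zfp750, a differentiation factor with 8 members, by 3.63, and Rora by 2.15 on the log2 scale (edgeR adjusted p = 7.03e-06, 3.88e-07 and 2.54e-06). Of the 20 follicle factors, Sox4 (1.44, SE 0.427, edgeR adjusted p = 0.0273), with no member, and Sox6 were higher in EpdSC. Sox6 is an HMG-box factor with 5 members and no HFSC-higher window, and it had 1.40 and 2.79 CPM in young HFSC and 139 and 192 CPM in young EpdSC (6.32, SE 0.317, edgeR adjusted p = 7.80e-08). Sox5, its close relative, had 3 members but less RNA in EpdSC (-1.87, SE 0.435, edgeR adjusted p = 0.00764).

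Keratins, envelope and junction genes came next. Of 12 epidermal keratins, 8 had a member, and at 2 months 8 of the 12 were higher and 1 lower in EpdSC. Krt14, the basal keratin, and Krt16 shared the same 7 members, which summed to 48.1 CPM in young EpdSC and 4.85 in young HFSC. Krt14 RNA was 2101 and 1760.1 CPM in young HFSC and 9163 and 7435 CPM in young EpdSC (log2 difference 2.10, SE 0.225, edgeR adjusted p = 2.76e-05), whereas Krt16 varied within groups (20.7 and 2.16, 51.3 and 7.23 CPM) and did not pass the test (1.35, SE 0.954, edgeR adjusted p = 0.359). Krt1, the keratin of suprabasal cells, had 2.69 and 17.999 CPM in young HFSC and 709 and 765 CPM in young EpdSC (6.17, SE 0.652, edgeR adjusted p = 2.53e-05). Of 41 cornified envelope genes, 14 had a member, and of 22 tested 6 were higher and 2 lower at 2 months. Tgm3, with 8 members, was higher by 4.35 (SE 0.453, edgeR adjusted p = 2.23e-05), and Tgm1, another transglutaminase with 3 members, was lower (-1.70, SE 0.526, edgeR adjusted p = 0.0331). Markers of suprabasal cells, which have left the basal layer, overlap with these lists. Krt1 and Krt10 are also in the keratin list, and Ivl, Lor, Flg, Sbsn and Krtdap in the envelope list. The markers are thus not a separate result. Their summed RNA was 659 and 1019 CPM in young HFSC and 3246 and 3103 CPM in young EpdSC. In the aged libraries it was 828 and 1169 CPM in HFSC and 4290.2 and 4299 CPM in EpdSC. Singly, 6 of 9 tested were higher in EpdSC and 2 lower at 2 months. In the aged libraries 5 were higher and 2 lower. The part of suprabasal cells in the differences was not tested.

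Of 22 junction genes, 15 had a member, and 12 of the 22 were higher and 1 lower at 2 months. Pkp1, a desmosomal plakophilin with 8 members, had 218 and 268 CPM in young HFSC and 1524 and 1417 CPM in young EpdSC (log2 difference 2.60, SE 0.184, edgeR adjusted p = 1.01e-06). Of 18 basement membrane and integrin genes, 10 had a member, and 3 were higher and 3 lower at 2 months. Itga6, the integrin used in the sort of both cell types, had 6 members and was higher in EpdSC by 1.91 (SE 0.170, edgeR adjusted p = 6.52e-06), while Itgb6, with 3 members and 2 HFSC-higher windows, was lower (-2.79, SE 0.161, edgeR adjusted p = 2.22e-07). Its RNA was 269 and 268 CPM in young HFSC and 43.3 and 34.3 CPM in young EpdSC.

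Ly6, Skint and immune signalling genes were also near members. Of 13 Ly6 genes, which encode small proteins with a lipid anchor in the membrane, 8 had a member and none had an HFSC-higher window. Ly6d, with 7 members, had 7.28 and 14.4 CPM of RNA in young HFSC and 686 and 573 CPM in young EpdSC (log2 difference 5.86, SE 0.319, edgeR adjusted p = 1.38e-07). Its neighbour Slurp1 had 8 members within 50000 bases but under 1 CPM in every library (0.61, SE 1.24, edgeR adjusted p = 0.782). Of 11 Skint genes, 6 had a member, 1 each, and 10 of the 11 were higher and 1, Skint4, lower in EpdSC at 2 months (median log2 difference 2.55). At 24 months 6 were higher and 1 lower (median 1.51). Near-identical Skint copies can share reads, so single values there are uncertain. Of 24 interleukin and chemokine genes 13 had a member, and 11 of 20 tested were higher and 2 lower. Il20ra, a receptor chain for IL-20 family cytokines, with 4 members, had 0.731 and 0.982 CPM in young HFSC and 232 and 229 CPM in young EpdSC (8.08, SE 0.209, edgeR adjusted p = 2.49e-09). Il1rn, the IL-1 receptor antagonist, with 5 members, was higher by 5.88 (SE 0.400, edgeR adjusted p = 7.23e-07), and Il1r1, the receptor, with 6 members, by 1.43 (SE 0.180, edgeR adjusted p = 0.0001).

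HFSC-higher windows were also found within 50000 bases of many of these genes, among them 4 of 12 keratins, 8 of 41 envelope genes, 5 of 22 junction genes, 8 of 18 basement membrane and integrin genes, 4 of 11 Skint genes and 4 of 24 interleukins and chemokines.

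The remaining lists were mixed. HFSC-higher windows lay near 5 of 20 lipid barrier genes, 5 of 12 ErbB and EGF genes, 4 of 12 S100 genes, 5 of 15 Serpinb genes and 3 of 14 Notch genes. Of 20 lipid barrier genes 11 had a member, and 12 were higher and 2 lower at 2 months, among them Abca12, the lipid transporter of lamellar granules (log2 difference 3.55, SE 0.169, edgeR adjusted p = 5.83e-08), and Abhd5, a lipase co-activator with 9 members (1.66, SE 0.182, edgeR adjusted p = 3.31e-05). Of 12 ErbB receptors and EGF ligands, 9 had a member. In that list Epgn, the ligand epigen, was higher by 6.35 (SE 0.494, edgeR adjusted p = 2.23e-06), Egfr lower (-0.65, SE 0.137, edgeR adjusted p = 0.00423), and Nrg1, with 8 members, at 3.82 and 2.52 against 8.91 and 6.01 CPM did not pass (1.23, SE 0.473, edgeR adjusted p = 0.0803). Of 12 S100 genes, 7 had a member, and 4 of 10 tested were higher and 5 lower. Of 15 Serpinb protease inhibitors, 7 had a member, and 2 of 11 tested were higher and 2 lower. Serpinb2, with 4 members, had 81.6 and 18.9 CPM in young HFSC and 1046 and 1030.4 CPM in young EpdSC (4.37, SE 0.536, edgeR adjusted p = 8.09e-05). Of 14 Notch pathway genes, 4 had a member: Notch1, with 4, was higher by 1.28 (SE 0.181, edgeR adjusted p = 0.000234), and Jag1, a Notch ligand with 2, was lower (-1.34, SE 0.133, edgeR adjusted p = 1.47e-05).

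Markers of cell types were read in the same way. Of 12 epidermal stem cell markers 9 had a member within 50000 bases, and of 12 follicle stem cell markers 2 did, while 4 of the former and 11 of the latter had an HFSC-higher window. Of 8 T cell markers 5 had members, 7 of them near Thy1, but Cd3e, Cd3d and Cd3g stayed under 1 CPM in every library. The summed RNA of the T cell markers was 46.6 and 45.1 CPM in young EpdSC and 6.68 and 4.72 CPM in young HFSC. At 24 months it was 78.2 and 88.1 CPM in EpdSC and 7.53 and 5.85 CPM in HFSC. Singly, 1 of 7 tested was higher in EpdSC at each age and 0 were lower, with median log2 differences of 1.08 and -0.18. Thy1 had 4.32 and 2.75 CPM in young HFSC and 45.4 and 42.1 CPM in young EpdSC (log2 difference 3.62, SE 0.264, edgeR adjusted p = 1.32e-06). None of 8 fibroblast markers, 1 of 8 melanocyte markers, 2 of 9 Langerhans cell markers, 2 of 6 endothelial and 2 of 6 Merkel cell markers had a member, as did 2 of 10 sebaceous and 4 of 9 upper follicle markers. The summed RNA of fibroblast markers was 1.29 to 6.02 CPM in EpdSC and 58.9 to 96.1 CPM in HFSC. That of melanocyte markers was 12.3 to 20.03 CPM in EpdSC and 189 to 260 CPM in HFSC. Summed Langerhans markers were 121 to 191 CPM in EpdSC and 182 to 317 CPM in HFSC, and most of this came from Epcam and Mfge8, which other cells also express. Singly, 5 of the 9 (Cd207, Cd74, H2-Aa, H2-Ab1 and Tyrobp) were higher in EpdSC at 2 months and 1, Mfge8, lower, with a median log2 difference of 2.68, and at 24 months none was higher and 1 lower (median 0.38). Of these 5, Cd74 was the most abundant, with 0.731 and 3.42 CPM in young HFSC and 13.3 and 13.0 CPM in young EpdSC, and Cd207 was under 1 CPM in every library. Their part in the results was not tested.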

How the data were processed

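The ATAC-seq files, as the authors deposited them, hold whole-number counts for 500-base windows at steps of 250 bases, and the RNA-seq files whole-number counts per gene. Per the submitters' processing notes, STAR, Bowtie and Cell Ranger were used with build mm10. For versions, duplicate removal, shifting of cut sites and strand setting: not given in the sources used here. The RNA libraries held 25126808 to 35905505 counts. The 10x libraries were not used here.

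Windows starting at multiples of 500 bases were divided by their sum to give CPM. Their counts tell windows apart to within counting error only, since each group has 1 ATAC library. Genes and promoters came from RefSeq tables of assembly GRCm38.p6, which shares its coordinates with mm10, and were matched to the RNA rows by symbol or a unique synonym. RNA was tested with edgeR 4.0.16 (quasi-likelihood, TMM, filterByExpr, all 8 libraries in 1 fit, R 4.3.3) with Benjamini-Hochberg adjustment over 21464 genes, and called at an adjusted p under 0.05. On simulated counts for the comparison of EpdSC with HFSC at 2 months, over 21464 genes with 200 changed by 4-fold, 99.5% of the changed genes were recovered. The changed genes were drawn from genes with higher counts, and every gene was given the same spread. Recovery for genes with few counts or uneven replicates was thus not measured. DESeq2 1.42.0 was an alternative.

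The members, gene lists and naming rule were chosen with earlier results of these data known. Named were the 10 regions and 10 genes with the most members, up to 4 genes per list with the most members within 50000 bases, the 5 smallest and 5 largest ratios at 24 months, the sort markers, and printed promoters of up to 6 of these genes.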

Additional observations from a re-analysis of the deposited data

How the results depend on the processing

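The number of member windows depends on the limits of the rule. It was 5905 as given, 15220 with a minimum of 2 CPM, 1121 with a minimum of 8 CPM and 2587 with a ratio of 8, and within 1.5 times the main number under a ratio of 3 (7801), a pseudocount of 0.5 CPM (4659), TMM scaling (4170), the windows between those used (5901), and, chosen after seeing the data, without the regions over Atf3, Nr4a1 and Fos (5870). The share of members at 4-fold or more at 24 months, 92.4%, was 97.4% with a minimum of 8 CPM, 79.9% with a pseudocount of 0.5 CPM, 51.7% after TMM scaling, and 99.9% at 2-fold or more. The share in a gene or within 1000 bases of its end, 65.0%, was 53.1% for protein-coding genes only. With the nearest gene counted only where a window lay within 1000 bases of the gene's end, fewer genes entered, and 255 of 429 were higher in EpdSC at 2 months and 234 of 429 at 24 months. Leaving out 1 RNA library at a time gave 699 to 937 genes higher at 2 months and 678 to 893 at 24 months, against 881 and 815; a group left with 1 library was assumed to vary like the others. Of the 6 pairs of RNA groups, same-numbered libraries had deviations from their group means that correlated across genes by -0.08 between the cell types at 2 months, -0.07 at 24 months, 0.17 between the ages in EpdSC, 0.16 in HFSC, and -0.05 and -0.21 in the other pairs. The labels say nothing shared by a number, so the main test had no pairing. With the replicate number as a block the counts were 911 and 852, with DESeq2 913 and 843, and with no filter on low counts 924 and 859. Protein-coding nearest genes alone, chosen after seeing the data, gave 864 and 799. At 33.0 counts for 4 CPM, the aged HFSC library limits every ratio at 24 months.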
